A study of Rattus norvegicus with 24 samples.

Results

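Fatty acid oxidation and ketone production were followed through 35 genes, listed by name for their known roles in this route. The gene table held 34 of them among 30958 rows, Eci2 was not found under that name, and all 34 passed the filter on low values with which 12151 genes were tested. The RNA came from livers of female Sprague-Dawley rats aged 6 weeks at the start and 14 weeks at sampling, 8 rats in each of 3 groups. DL.reuteri rats were kept without light for 8 weeks and were given Lactobacillus reuteri at 100 mg per day by gavage. Darkness rats were kept without light for the same 8 weeks and were given saline. Control rats had 12 h of light per day and received saline. All rats were fasted before sampling, so every level below is that of a fasted liver, taken at a single time of day by the clock. The authors report that daily rhythms of several liver genes differed between control and darkness rats. The same clock time may thus be another phase in rats kept without light, and phase and darkness cannot be told apart here.

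In the liver, long fatty acids are taken up and joined to coenzyme A, carried into mitochondria as carnitine esters and shortened by repeated rounds of beta-oxidation. Electrons from the first step pass through the electron transfer flavoproteins to the respiratory chain, and in fasting much of the acetyl-CoA is made into ketone bodies, which other tissues burn. The nuclear receptor PPAR-alpha, encoded by Ppara, switches on many of these genes when fatty acids arrive from adipose tissue.

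Expression was given as FPKM, fragments scaled to the length of the gene and to all mapped fragments, which allows levels of different genes to be set side by side. Transcripts of the mitochondrial genome took 39.3 ± 22.5% of all FPKM in DL.reuteri livers, 38.5 ± 17.0% in darkness livers and 37.2 ± 11.1% in control livers (SD, n = 8 each), with a full range of 12.5% to 85.5%. The highest share was in the library DL.reuteri 3, whose hepatocyte marker score of 8.18, a mean of log2(FPKM + 1), was the lowest of all, with 10.6 next in its group. The library DL.reuteri 2 held 183 FPKM of Ucp1, the brown fat uncoupling protein, which was at 0 in 21 of the 24 libraries, and it and control 8 had the highest adipocyte marker scores, 3.16 and 4.20. The part of these libraries in the results was not tested beyond the values given without them. Ratios of low values put the depth of the libraries between 0.829 and 1.62 times that of control 1.

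Equal FPKM of different genes within a library, to the last digit deposited, occurred for 0.883% to 3.15% of the genes above 1 FPKM. Among the members they touched 5 values, and Acads and Acaa2 shared 1 value, 11.2 FPKM, in DL.reuteri 3 while differing in the other 23 libraries. The origin of these ties was not tested, and the values of DL.reuteri 3 are therefore read together with the results without that library.

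Upstream sequences are shown for Hadh and Acadm, which fell with the share of mitochondrial transcripts, and for Slc27a2, which did not. Each is the 250 bases before the gene start in RefSeq on GRCr8, written 5′ to 3′ on the strand of the gene, with capitals for the GC box GGGCGG or the nuclear receptor half-site AGGTCA on either strand. The windows are chr2:222504447-222504696 (minus strand) for Hadh, chr2:245542865-245543114 (minus strand) for Acadm and chr3:134257851-134258100 (plus strand) for Slc27a2.
Hadh: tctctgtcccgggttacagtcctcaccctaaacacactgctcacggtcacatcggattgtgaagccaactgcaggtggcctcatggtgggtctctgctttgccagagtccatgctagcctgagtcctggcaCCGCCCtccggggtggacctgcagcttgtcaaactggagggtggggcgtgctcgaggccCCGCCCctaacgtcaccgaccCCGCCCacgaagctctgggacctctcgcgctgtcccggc
Acadm: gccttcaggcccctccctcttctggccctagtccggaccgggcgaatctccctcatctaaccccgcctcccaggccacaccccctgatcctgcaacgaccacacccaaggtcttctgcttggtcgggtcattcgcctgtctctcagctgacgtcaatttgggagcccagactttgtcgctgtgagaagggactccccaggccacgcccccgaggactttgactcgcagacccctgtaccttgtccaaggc
Slc27a2: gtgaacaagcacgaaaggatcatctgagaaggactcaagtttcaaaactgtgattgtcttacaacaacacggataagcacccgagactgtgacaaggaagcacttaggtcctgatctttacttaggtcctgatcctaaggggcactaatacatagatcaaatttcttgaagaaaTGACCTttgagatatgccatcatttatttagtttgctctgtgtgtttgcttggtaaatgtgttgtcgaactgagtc
The Hadh window held 3 GC boxes, the Acadm window none and the Slc27a2 window 1 half-site. Of the 29 measured members with an entry, 20 held a GC box, 69.0%, against 30.5% of all 33469 promoters. A half-site was present in 5 of them, 17.2% against 14.1%, namely Acadvl, Creb3l3, Eci1, Hsd17b4 and Slc27a2. The full direct repeat AGGTCANAGGTCA, the form to which PPAR-alpha binds with its partner RXR, was in 0.0508% of all promoters and in 0 of the members. The 33469 promoters were not limited to genes expressed in these livers, as the members are, so the shares compare unlike sets. These matches describe the letters of the windows only.

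The livers expressed the whole route, at levels that differed by more than 100-fold between genes. Slc27a2, which takes up and activates long chains, averaged 347 ± 58.2 FPKM in DL.reuteri livers, 309 ± 37.1 FPKM in darkness livers and 327 ± 35.5 FPKM in control livers (SD, n = 8 each). Acsl1, the main long-chain acyl-CoA synthetase, and Etfb, a subunit of the electron transfer flavoprotein, were at similar heights. Cpt1a, which commits fatty acids to the carnitine shuttle, averaged 21.2 ± 10.8 FPKM in DL.reuteri livers, 16.8 ± 9.05 FPKM in darkness livers and 15.3 ± 9.46 FPKM in control livers. Ppargc1a, the coactivator of PPAR-alpha, was the lowest member, at 0.654 ± 0.400 FPKM in DL.reuteri livers, 0.506 ± 0.266 FPKM in darkness livers and 0.609 ± 0.404 FPKM in control livers.

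**Figure D1:**
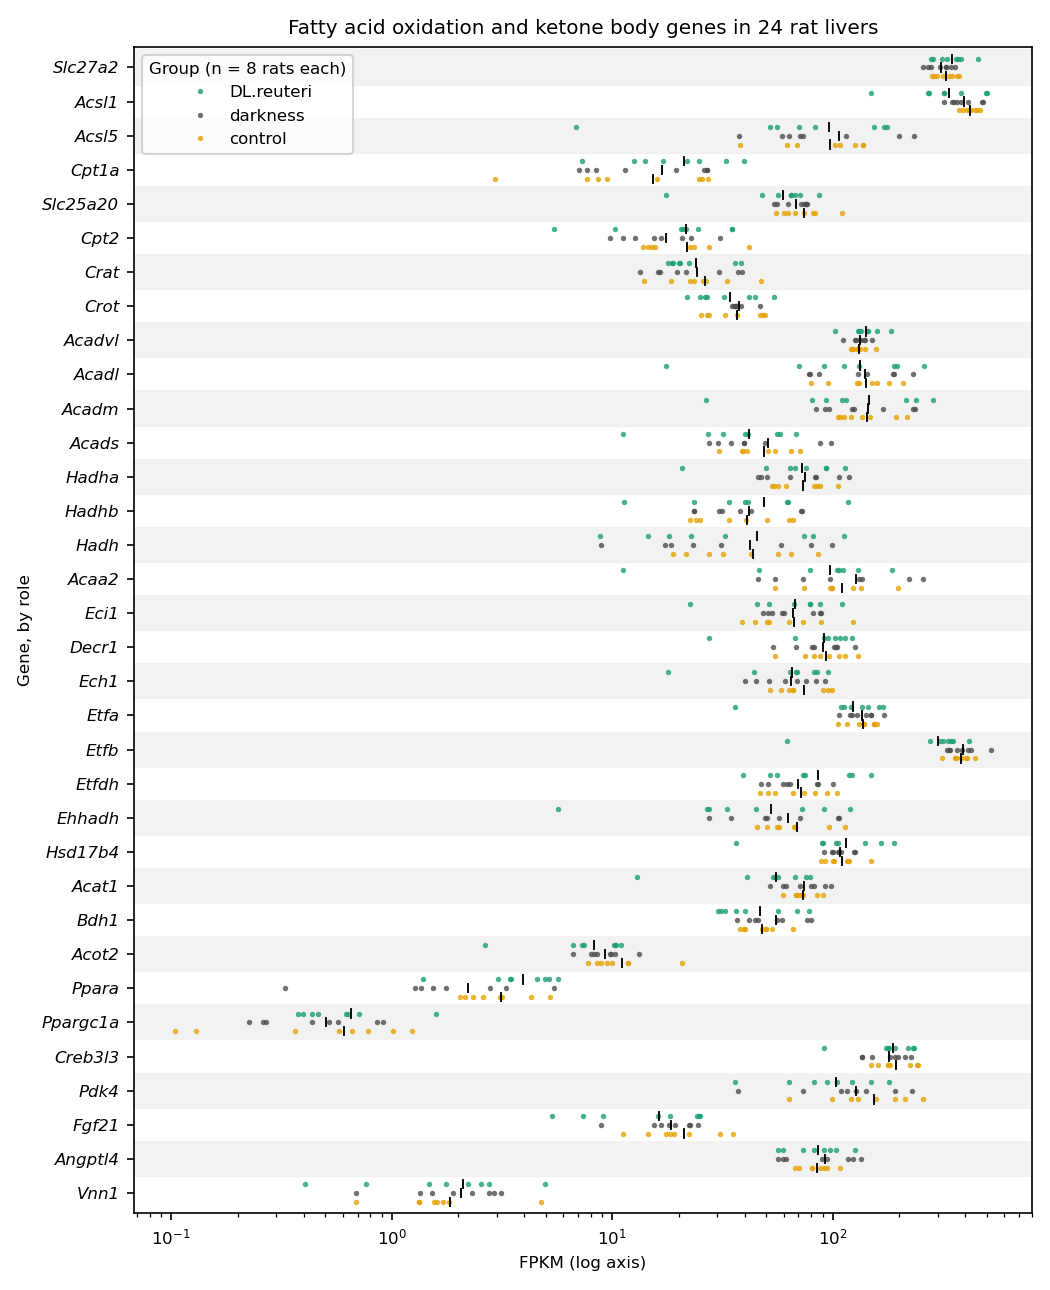
FPKM (log axis) of the 34 measured members, in order of role, with 1 point per rat and a black tick at each group mean (n = 8 rats each). The groups overlap for every member, and DL.reuteri 3 is the lowest point of its group for 26 of the 34.

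In DL.reuteri livers against darkness livers, no member was called at an adjusted p under 0.05 in limma, where 0.0823% of all genes were called. This background changed with DL.reuteri 3: without it 1219 of 12127 genes were called, 10.1%, and 2766 were higher and 478 lower at an unadjusted p under 0.05, against 10 called and 1453 and 594 with it. At an unadjusted p under 0.05, 1 member was higher (Ppara) against 12% of all genes, and 1 was lower (Acat1) against 4.89% of all genes (16.8% in either direction). The log2 difference was below 0 for 23 of the 34 members and for 40.3% of all genes. The median log2 difference was -0.09 over the members and 0.07 over all genes tested. The ranges of the groups overlapped for every member, and 0.123% of all genes had ranges that did not.

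Ppara, the fasting receptor itself, had 3.44, 3.46, 1.38, 3.05, 5.16, 4.98, 5.67 and 4.55 FPKM in DL.reuteri livers, 2.79, 3.30, 5.44, 1.76, 1.27, 1.54, 0.327 and 1.36 FPKM in darkness livers, and 2.35, 2.05, 5.25, 2.14, 4.29, 3.17, 3.11 and 2.59 FPKM in control livers. Most DL.reuteri livers lay above most darkness livers, with DL.reuteri 3 low and darkness 3 high in their groups, and the groups overlapped. The log2 difference between DL.reuteri and darkness was 0.70 (SE 0.25), with an adjusted p of 0.152 in limma. In an exact two-sided permutation test of 8 rats against 8, p was 0.0337, or 0.101 adjusted over 6 comparisons. This test was run only for Ppara and Acat1, picked for an unadjusted p under 0.05 in limma on the same livers. Its adjustment does not cover that choice, so it is no independent test. Without DL.reuteri 3 the log2 difference was 0.85 with an adjusted p of 0.0269 in limma, in a fit that called 10.1% of all genes. With all 24 libraries rescaled outside the mitochondrial genome it was 0.79 with an adjusted p of 0.0449, in a fit that called 8.22% of all genes. Of 10 alternative settings, in limma or a linear model with a library term, 2 gave an adjusted p under 0.05. Their adjusted p ranged from 0.0380 to 0.286, with log2 differences of 0.49 to 1.03. Of the 24 limma fits without 1 library, 1 did, with adjusted p of 0.0269 to 0.311 and log2 differences of 0.54 to 0.87. Darkness minus control was -0.45 (SE 0.25, unadjusted p = 0.0799 in limma), and DL.reuteri minus control was 0.25 (adjusted p = 0.718 in limma).

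Acat1, the mitochondrial thiolase that joins acetyl-CoA units on the way to ketone bodies and also acts on them in reverse, had 67.9, 78.8, 13.0, 53.7, 40.9, 54.5, 56.4 and 75.8 FPKM in DL.reuteri livers, 70.8, 61.6, 59.4, 51.9, 82.1, 92.2, 98.0 and 79.9 FPKM in darkness livers, and 73.6, 70.7, 68.5, 68.3, 72.8, 84.8, 90.5 and 59.7 FPKM in control livers. DL.reuteri 3 was far below the rest, and the other 7 DL.reuteri livers overlapped both groups. DL.reuteri minus darkness was -0.55 on the log2 scale (SE 0.25, adjusted p = 0.270 in limma), and DL.reuteri minus control was -0.55 (adjusted p = 0.346 in limma). The exact permutation p was 0.0570 against darkness and 0.0281 against control, both above 0.05 once adjusted. Without DL.reuteri 3 the differences were -0.28 and -0.28, with adjusted p of 0.236 and 0.302 in limma. Against darkness, 3 of 10 alternative settings gave an adjusted p under 0.05, in limma or a linear model with a library term (range 0.0128 to 0.448). These 3 fits called 6.02% to 8.22% of all genes. None of the 24 fits without 1 library passed 0.05 against darkness, and against control none of either kind did. Bdh1, which interconverts the ketone bodies acetoacetate and beta-hydroxybutyrate, averaged 46.8 ± 18.7 FPKM in DL.reuteri livers, 55.1 ± 16.2 FPKM in darkness livers and 48.0 ± 9.18 FPKM in control livers, with no call.

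**Figure D2:**
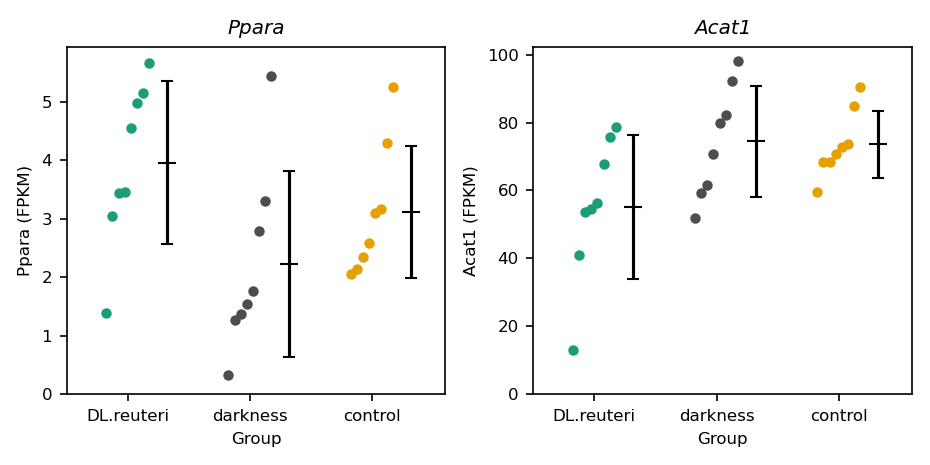
FPKM of Ppara and Acat1, with 1 point per rat in order of value and bars for the mean and SD (n = 8 rats each). Ppara averaged 3.96 in DL.reuteri, 2.22 in darkness and 3.12 in control livers, and the lowest Acat1 point, 13.0 FPKM, is DL.reuteri 3.

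In DL.reuteri livers against control livers, no member was called, against 0.14% of all genes. At an unadjusted p under 0.05 no member was higher, against 6.43% of all genes, and Acat1 alone was lower, against 6.81% of all genes (13.2% in either direction). The log2 difference was below 0 for 26 of the 34 members and for 49.6% of all genes, and the ranges of the groups overlapped for every member, while those of 0.263% of all genes did not. Pdk4, which holds back glucose oxidation in fasting, averaged 104 ± 46.5 FPKM in DL.reuteri livers, 128 ± 61.1 FPKM in darkness livers and 154 ± 63.5 FPKM in control livers, a log2 difference of -0.59 (SE 0.35) between DL.reuteri and control. Ehhadh, a peroxisomal enzyme of beta-oxidation, averaged 52.8 ± 38.5 FPKM in DL.reuteri livers and 69.2 ± 23.7 FPKM in control livers, with DL.reuteri 3 at 5.67 FPKM. Neither difference passed the test.

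In darkness livers against control livers, no member passed even an unadjusted p of 0.05. Over all genes 0% were called at the adjusted threshold, while 0.477% were higher and 2.3% lower at the unadjusted one (2.78% in either direction). The ranges of the groups overlapped for every member, and did not for 0.0329% of all genes. The log2 difference was below 0 for 24 of the 34 members, against 69.2% of all genes. The width of the intervals limits this comparison, most of all for Hadh, which differed by -0.27 with an SE of 0.50. The smallest SE among the members was 0.13, for Acadvl.

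**Figure D3:**
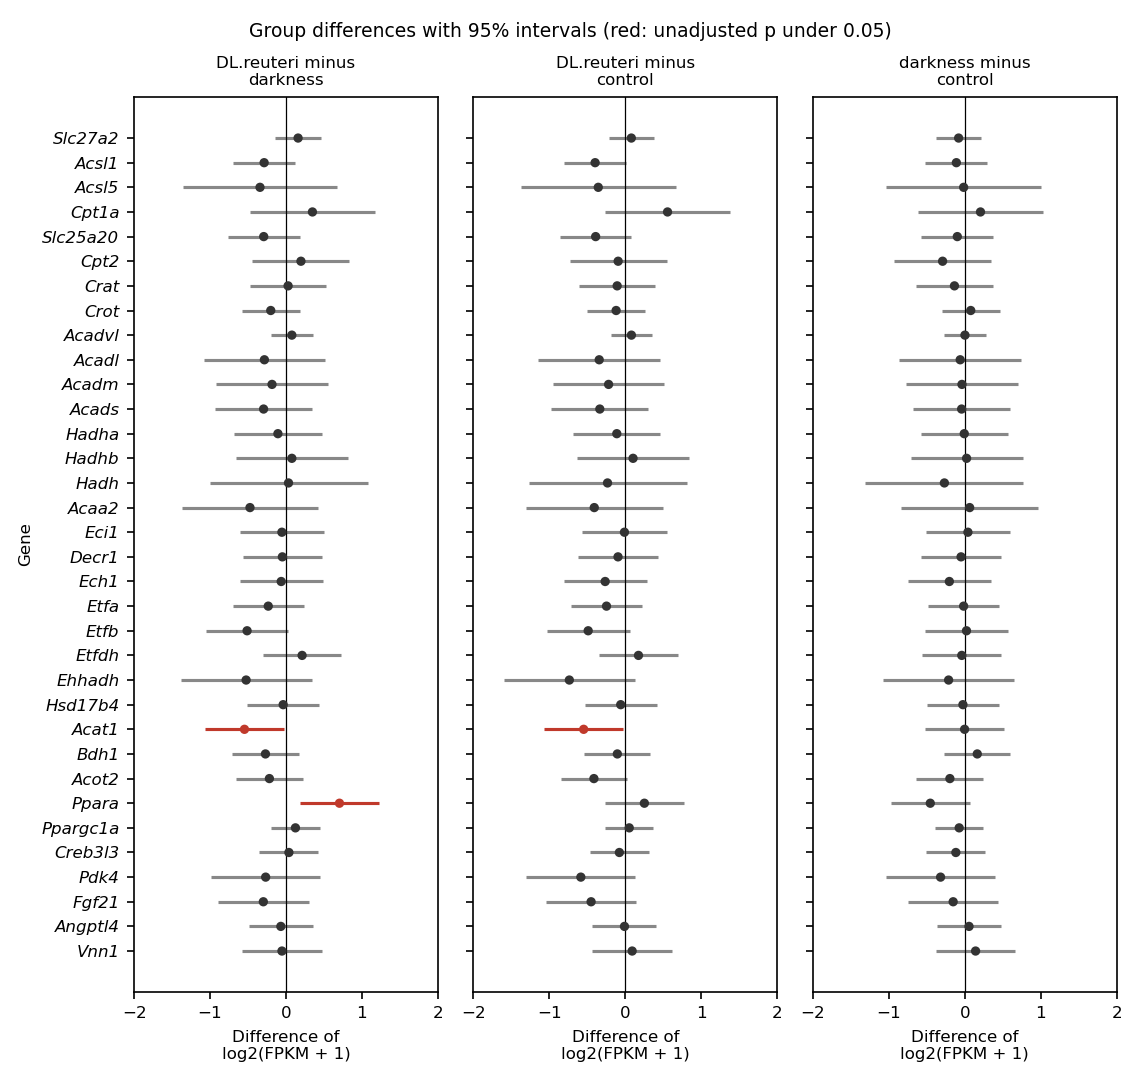
Differences of log2(FPKM + 1) for the 34 members in 3 comparisons, with 95% intervals from limma and unadjusted p under 0.05 in red. Ppara (0.70) and Acat1 (-0.55) are the only red points against darkness, Acat1 (-0.55) is the only one against control, and darkness against control has none.

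None of the targets of the receptor was called in any of the 3 comparisons. Fgf21, the fasting hormone of the liver, ranged from 5.36 to 25.0 FPKM (median 17.2) in DL.reuteri livers, 8.93 to 24.5 FPKM (median 18.7) in darkness livers and 11.3 to 35.2 FPKM (median 18.7) in control livers. Angptl4, an inhibitor of lipoprotein lipase, ranged from 56.3 to 127 FPKM in DL.reuteri livers, 56.4 to 135 FPKM in darkness livers and 67.5 to 109 FPKM in control livers. Vnn1, a pantetheinase induced by PPAR-alpha, ranged from 0.406 to 4.96 FPKM in DL.reuteri livers, 0.687 to 3.14 FPKM in darkness livers and 0.688 to 4.76 FPKM in control livers. Creb3l3, a liver transcription factor of fasting, averaged 188 ± 45.8 FPKM in DL.reuteri livers, 180 ± 34.8 FPKM in darkness livers and 195 ± 36.2 FPKM in control livers. Across the 24 livers, with group means removed, Ppara and each of 7 of these and other PPAR-alpha targets had Pearson r between 0.02 and 0.18 and Spearman rho between -0.12 and 0.13, with permutation p of 0.446 or more (0.901 or more adjusted over 14 p-values). Without darkness 7 and DL.reuteri 7, the libraries with the most extreme Ppara, r lay between -0.02 and 0.27. The range was -0.31 (Acadm) to 0.19 (Fgf21) without DL.reuteri 3, and -0.45 (Acadm) to 0.31 (Fgf21) after rescaling outside the mitochondrial genome. The sign for Acadm, Ehhadh and Vnn1 changed with either choice. Where libraries were left out, the group means stayed those of all 24 livers, so the livers kept were not centred anew.

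Several enzymes varied widely between rats of a group, beside small differences between the groups. Hadh, the short-chain hydroxyacyl-CoA dehydrogenase, ranged from 8.79 to 112 FPKM in DL.reuteri livers, 8.86 to 99.3 FPKM in darkness livers and 18.9 to 85.4 FPKM in control livers. On the deposited scale its log2 level fell with the log2 share of mitochondrial transcripts, with Pearson r = -0.95 and Spearman rho = -0.97 over the 24 livers centred on group means. Acads, the short-chain acyl-CoA dehydrogenase, gave r = -0.97 and rho = -0.98. These genes were chosen for their r after it was seen, so the relation is given as a description, with no p. Without the 2 libraries with the most extreme shares, DL.reuteri 3 and darkness 7, r was -0.98 for Acads and -0.96 for Hadh. The group means removed for this r stayed those of all 24 livers.

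FPKM and the share have a common denominator, so r was also taken with FPKM rescaled to the sum outside the mitochondrial genome. That sum was 538272 in darkness 7 (share 12.5%) and 143292 in DL.reuteri 3 (share 85.5%). Dividing by it tends to raise r, so the coupling to the share is not removed. Over all genes r was above 0.5 for 41.1% after rescaling, against 14.6% as deposited, and a rise in r is read beside that. After rescaling the picture differed between genes. Acads kept r = -0.95 and Hadh r = -0.89. Slc27a2 had r = 0.40 and rho = 0.43 as deposited, but r = 0.89 and rho = 0.90 after rescaling, with r = 0.94 in DL.reuteri, 0.95 in darkness and 0.69 in control livers. Ppara had r = 0.15 and rho = 0.10 as deposited, and r = 0.52 and rho = 0.50 after rescaling. The median r over the members was -0.72, against -0.22 over all genes, as deposited, and -0.20, against 0.36 over all genes, after rescaling.

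Members with r below -0.8 numbered 11 of 34 as deposited, against 11.4% of all genes, and 9 of 34 after rescaling, against 3.66% of all genes. After rescaling these were 7 of the 8 genes of the mitochondrial cycle, with Acadm at -0.90, Hadha at -0.84 and Hadhb at -0.83, together with Acsl5, a long-chain acyl-CoA synthetase, at -0.91 and Ehhadh at -0.86. Acadvl, the very-long-chain dehydrogenase of the same cycle, had r = -0.62 as deposited and 0.64 after rescaling. Other members were only weakly related to the share on the deposited scale, among them Cpt1a at -0.21, Eci1, an isomerase of unsaturated chains, at -0.14 and Crat, the carnitine acetyltransferase, at 0.15.

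The hepatocyte marker score moved with the share as well. Over its 8 markers r was -0.79 (rho = -0.93) as deposited and -0.78 (rho = -0.87) after rescaling. Without DL.reuteri 3 r was -0.87 as deposited and -0.78 after rescaling, with group means still those of all 24 livers. As deposited r was -0.86 within DL.reuteri, -0.90 within darkness and -0.90 within control livers. In bulk tissue fewer hepatocytes and less RNA per hepatocyte cannot be told apart, and the part of the score in the members' relation to the share was not tested.

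**Figure D4:**
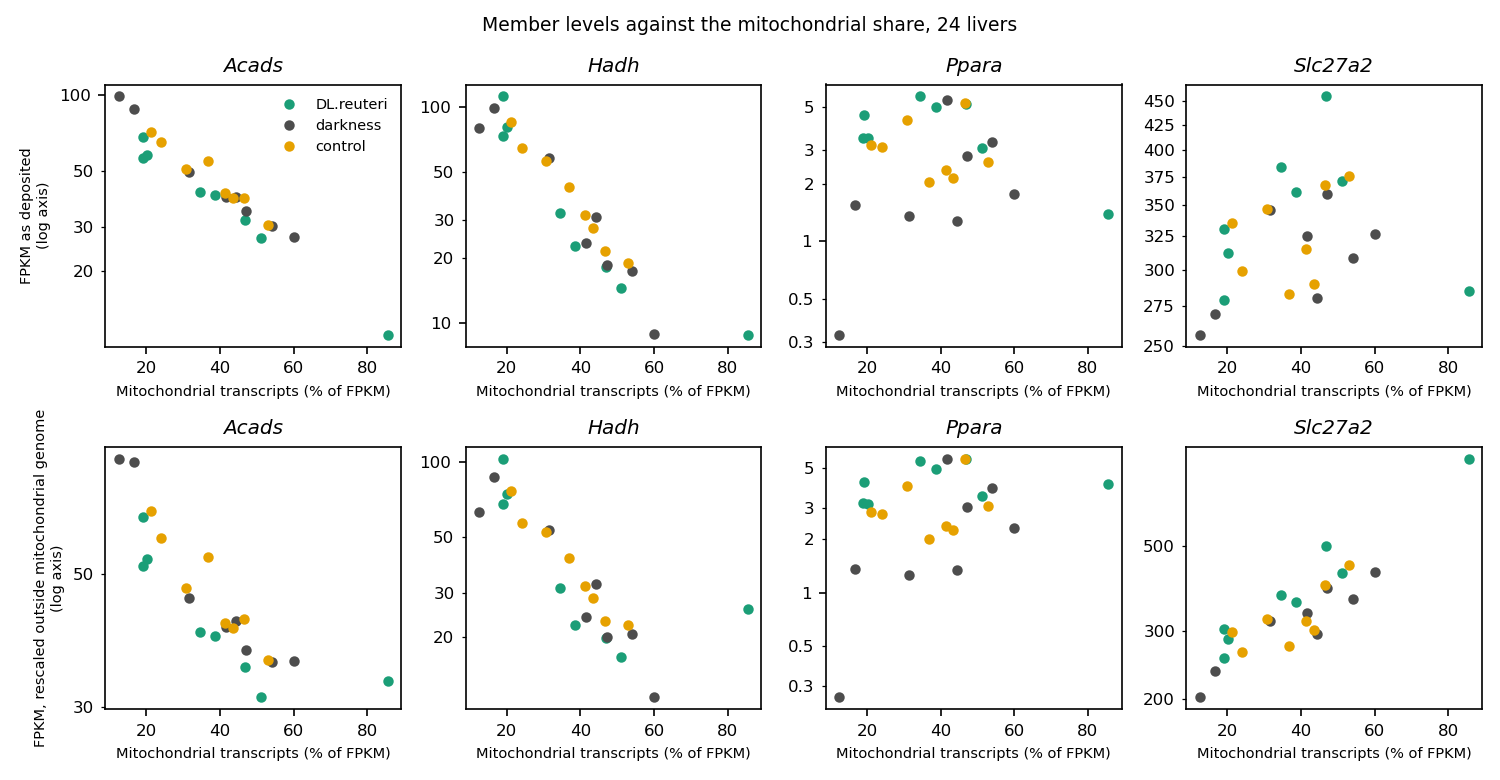
FPKM (log axes) of 4 members against the percent of FPKM from the mitochondrial genome, as deposited (top) and rescaled to the sum outside the mitochondrial genome (bottom), with 1 point per rat. Acads and Hadh fall with the share on both scales (r = -0.97 and -0.95 as deposited), Slc27a2 has r = 0.40 as deposited and 0.89 after rescaling, and Ppara 0.15 and 0.52.

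**Figure D5:**
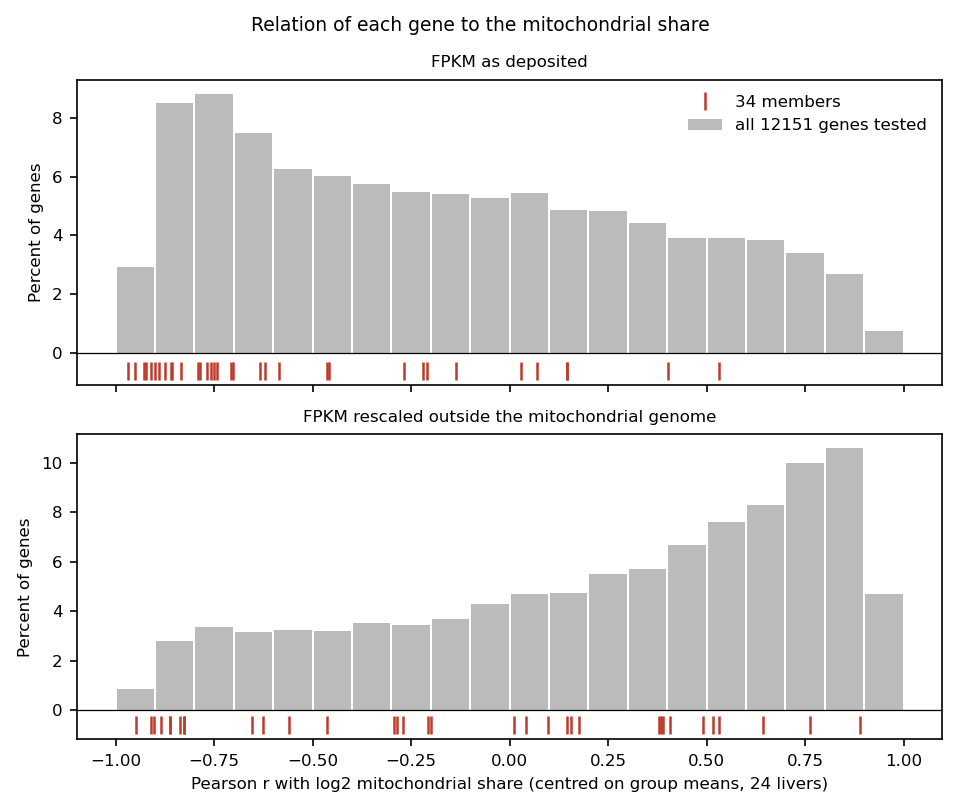
Percent of the 12151 tested genes by their Pearson r with the log2 mitochondrial share, and the r of the 34 members as red ticks, as deposited (top) and after rescaling (bottom). The members had a median r of -0.72, against -0.22 over all genes, as deposited, and of -0.20, against 0.36 over all genes, after rescaling.

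Other genes of the route were read from a second list of 38, of which 35 were tested. None was called in any comparison. Against darkness, 3 were higher and 3 lower at an unadjusted p under 0.05 in DL.reuteri livers, beside 12% and 4.89% of all genes. Against control 1 was higher and 3 were lower in DL.reuteri livers, beside 6.43% and 6.81% of all genes, and in darkness livers 0 moved in either direction at that p, beside 2.78% of all genes. Slc22a5, the carnitine importer, averaged 5.55 ± 1.18 FPKM in DL.reuteri livers, 3.65 ± 0.75 FPKM in darkness livers and 3.86 ± 1.32 FPKM in control livers (adjusted p = 0.121 in limma against darkness). Acacb, which makes the malonyl-CoA that blocks Cpt1a, averaged 8.89 ± 7.24 FPKM in DL.reuteri livers, 18.9 ± 6.32 FPKM in darkness livers and 15.6 ± 7.06 FPKM in control livers (adjusted p = 0.0741 in limma against darkness).

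Of 20 other regulators and PPAR targets, 18 were tested (Cyp4a2 by 2 rows), and 1 was called, against control, where 0.14% of all genes were. With no adjustment of p, 5 of them passed 0.05 as higher and 2 as lower in DL.reuteri livers against darkness livers (12% and 4.89% of all genes), 1 was higher and 1 lower against control livers (6.43% and 6.81%), and 1 was higher and 1 lower in darkness livers against control livers (0.477% and 2.3%). Ppard, encoding the related receptor PPAR-delta, averaged 3.27 ± 1.91 FPKM in DL.reuteri livers, 7.49 ± 2.84 FPKM in darkness livers and 8.01 ± 2.18 FPKM in control livers. DL.reuteri minus control was -1.16 on the log2 scale with an adjusted p of 0.0447 in limma, and DL.reuteri minus darkness was -1.03 with an adjusted p of 0.0551. The call against control held in 7 of the 24 fits that left out 1 library each, whose adjusted p in limma lay between 0.0144 and 0.133 and whose log2 differences lay between -1.28 and -1.06. Sirt1, a deacetylase that acts on the coactivator of PPAR-alpha, averaged 7.30 ± 2.00 FPKM in DL.reuteri livers, 4.22 ± 1.67 FPKM in darkness livers and 4.65 ± 1.12 FPKM in control livers, with an adjusted p of 0.0730 in limma against darkness. Rxra, encoding RXR, averaged 10.9 ± 6.00 FPKM in DL.reuteri livers, 20.0 ± 6.85 FPKM in darkness livers and 10.2 ± 3.83 FPKM in control livers. Darkness minus control was 0.93 for Rxra (unadjusted p = 0.000952, adjusted p = 0.9998 in limma). DL.reuteri minus darkness was -0.91 (adjusted p = 0.0791 in limma). The gene lower in darkness against control was Nrf1, at -0.27 (unadjusted p = 0.0253 in limma).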

How the data were processed

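RNA of 24 rat livers, each from 1 rat, was sequenced. The authors deposited FPKM per gene, made by trimming reads with Seqtk, mapping them to Rnor_6.0 with HISAT2 2.0.4 and quantifying with StringTie. One duplicate row at 0 was left out. Log2(FPKM + 1) was compared, over 12151 genes that reached 0.5 FPKM in 8 or more libraries, with limma 3.58.1 (R 4.3.3, trended variance, all 3 groups in 1 fit), with Benjamini-Hochberg adjustment over all genes, and calls are at an adjusted p under 0.05. FPKM carries no counting interval, so precision is that of 8 rats per group. Several rats shared a cage, the labels name no cage, and an effect of cages could not be assessed. Ppard was refitted without each library in turn, a check added after its value was seen. The fit was run on simulated data in which each gene had independent errors. Variation that the genes of a library share was not simulated, so the fit was not tested under it. Exact permutation tests used all 12870 splits, and correlations of Ppara with its targets used 100000 permutations within groups (Python 3.11.15, scipy 1.17.1). For relative depth, low values of each library were divided by those of the same genes in control 1, and the most common ratio was taken. It was read as the ratio of single reads, and its inverse as relative depth. The members and lists were chosen with earlier results of these data known. Named were all members, in detail those with an unadjusted p under 0.05, the regulators Ppara, Ppargc1a and Creb3l3, and the targets Cpt1a, Pdk4, Fgf21, Angptl4 and Vnn1; others named as examples, and the genes shown with the mitochondrial share, were chosen after their values were seen. Alternatives covered the pseudocount, filter, scaling, model, libraries left out and replicate number.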

Additional observations from a re-analysis of the deposited data

Results flagged for a closer look

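In 7 cases 1 rat stood apart from the other 7 of its group by Dixon's criterion, among 105 groups checked, and chance marks about 1 in 20 groups. DL.reuteri 3 was low for Etfa (36.0 FPKM, next 110 FPKM), Etfb (62.4 FPKM, next 278 FPKM) and Creb3l3 (91.6 FPKM, next 174 FPKM). It is the library with the highest mitochondrial share, 85.5%, and the lowest hepatocyte score, and their part in these values was not tested. Ppargc1a was high in DL.reuteri 2 (1.60 FPKM, next 0.714 FPKM), the library with 183 FPKM of Ucp1, and the part of brown fat RNA in this value was not tested. Control 6 was high for Acot2, an acyl-CoA thioesterase (20.6 FPKM, next 11.9 FPKM), and for Vnn1 (4.76 FPKM, next 1.81 FPKM). Crot, the peroxisomal carnitine acyltransferase, was high in darkness 5 (47.1 FPKM, next 38.6 FPKM).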

How the results depend on the processing

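No member was called in the reported fit, so no called member difference existed that could reverse. No member difference changed sign under an alternative where it had an unadjusted p under 0.05 in either fit. In DL.reuteri against darkness, calls at an adjusted p under 0.05 in limma or the stated model numbered 0, but 2 (Acat1 and Ppara) after rescaling outside the mitochondrial genome, 3 (Acat1, Etfa and Etfb) with the library term of Ballgown, 1 (Ppara) without control 8, DL.reuteri 2 and DL.reuteri 3, 1 (Acat1) with the mitochondrial share as a covariate, a setting chosen after seeing the data, and 0 to 1 without 1 rat at a time. Against control there were 0, but 1 (Etfb) with the Ballgown term and 2 (Acads and Ehhadh) with the covariate. Members lower at an unadjusted p under 0.05 against darkness numbered 1, with 2 after mitochondrial rescaling, 4 by median ratios, 7 with the Ballgown term, 0 in fits of the 2 groups alone, 7 with the covariate and 0 to 2 without 1 rat. Against control the number was 1, with 2 at a pseudocount of 0.1, 2 without a filter, 2 after mitochondrial rescaling, 5 by median ratios, 6 with the Ballgown term, 0 in fits of the 2 groups alone, 2 without the 3 libraries, 8 with the covariate and 0 to 4 without 1 rat. Members higher against darkness numbered 1, or 2 (Ppara and Slc27a2) without the 3 libraries, beside 12% and 21.7% of all genes. In darkness against control 0 were lower, 1 (Hadh) with the covariate and 0 to 1 without 1 rat (Ppara, without darkness 2 or darkness 3).

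Over all genes, mitochondrial rescaling moved the median log2 difference of DL.reuteri against darkness to 0.17, against 0.07 as deposited, and the calls to 1002, against 10. The split of higher against lower genes at an unadjusted p under 0.05 was then 2692 to 462, against 1453 to 594. Members called under an alternative stand beside these shares of all genes called against darkness: 8.22% after mitochondrial rescaling, 3.81% by median ratios, 7.95% with the Ballgown term, 7.66% (919 genes) without the 3 libraries, 6.02% (731 genes) with the covariate and 10.1% (1219 genes) without DL.reuteri 3, against 0.0823% as reported. By median ratios the split was 1137 to 1145 with 460 calls, and with the Ballgown term 965 to 1657 with 966 calls. Against control the calls were 17, or 260 (2.13%) after mitochondrial rescaling, 152 (1.26%) by median ratios, 39 (0.325%) without the 3 libraries, 650 (5.35%) with the Ballgown term, 330 (2.72%) with the covariate and 251 (2.07%) without DL.reuteri 3.

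Replicate numbers did not pair the rats, since same-numbered libraries correlated between -0.39 and 0.60. With the replicate number as a block, 0 members were called in each comparison, Ppara differed by 0.70 between DL.reuteri and darkness (adjusted p = 0.225 in limma), and calls over all genes were 3 against darkness and 9 against control.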
